A study of Homo sapiens with 19 samples.

Results

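The small RNA left in the medium of Caco-2 cells after a 100000 xg spin (S100) was compared with the total extracellular RNA (exRNA) of the same kind of medium, taken before any high-speed spin. Caco-2 is an established human line of colorectal epithelial cells. The comparison uses 7 of the 19 libraries of the series, chosen by their labels: S100 replicates 2, 3 and 4 and total exRNA replicates 1 to 4. The remaining libraries are 3 of cell lysate, 4 of the 40000 xg pellet (P40), 4 of the 100000 xg pellet (P100) and S100 replicate 1, which held 48 counts of 28 miRNAs and was left out. All groups came from wild-type cells grown with 20% fetal bovine serum, then kept for 24 h in medium free of serum and antibiotics once they were 80% confluent. For total exRNA, nucleic acid was precipitated from medium cleared of debris and extracted with Trizol. For S100, medium passed the 40000 xg and the 100000 xg spin, and the last supernatant was precipitated and extracted in the same way. Precipitation is thus shared by both groups, whereas P40, P100 and lysate were extracted without it. The labels do not state that the replicates were grown as separate cultures, so a p-value here weighs a difference against the spread of these libraries alone, which may be technical.

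A miRNA is a short RNA that guides an Argonaute protein to messenger RNAs and represses them, mainly through its seed, bases 2 to 8. Cells release miRNAs inside membrane vesicles, which pellet in ultracentrifugation, and in complexes with proteins such as Argonaute or with lipoproteins, much of which stays in the supernatant. miRNAs with the same seed form a family with shared targets, and miRNAs whose hairpins lie close together are often cut from 1 transcript.

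The S100 libraries held 198878 to 225290 counts and the total exRNA libraries 34427 to 61622. A floor of 3 counts stood for 12.5 to 15.7 CPM (the usual unit of counts scaled to one effective library size) in S100 and for 44.4 to 83.3 CPM in total exRNA. Spearman correlations of miRNA levels were 0.968 to 0.976 between S100 libraries and 0.505 to 0.566 between an S100 and a total exRNA library. Total exRNA replicate 2 stood apart from its group, with 0.830 to 0.841 against the other 3 libraries, which reached 0.932 to 0.954 among themselves. Epithelial marker miRNAs were all present: 11 of 11 were listed and tested, and they made up 3.05% to 3.40% of counts in S100 and 5.15% to 6.33% in total exRNA. Values of single libraries below follow the order S100 replicates 2, 3 and 4, then total exRNA replicates 1 to 4. A level is a share of the miRNAs in a library, so less of one RNA and more of the others cannot be told apart.

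The mature sequences of some miRNAs that lead either group are shown first, with those of miR-1228-5p and miR-103a-2-5p, which lead neither. Later comparisons of levels, families and arms refer to these sequences. They come from RefSeq (GRCh38.p14), run 5′ to 3′, and have the seed in capitals.
miR-22-3p: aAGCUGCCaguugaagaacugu
miR-423-5p: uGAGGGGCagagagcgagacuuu
miR-210-3p: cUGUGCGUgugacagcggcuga
miR-1228-5p: gUGGGCGGgggcaggugugug
miR-92a-3p: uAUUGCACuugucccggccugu
miR-103a-3p: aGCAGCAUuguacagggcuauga
miR-103a-2-5p: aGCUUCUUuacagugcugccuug
miR-200c-3p: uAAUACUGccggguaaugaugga
miR-21-5p: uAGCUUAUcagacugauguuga
miR-22-3p lies at chr17:1713914-1713935 (minus strand) in an exon of its host transcript MIR22HG. miR-423-5p lies at chr17:30117095-30117117 (plus strand) in NSRP1, and miR-210-3p at chr11:568112-568133 (minus strand) in an intron of MIR210HG. miR-1228-5p comes from an intron of LRP1 at chr12:57194504-57194524 (plus strand). miR-92a-3p is made from hairpins at chr13:91351361-91351382 (plus strand) and chrX:134169544-134169565 (minus strand), the former in an exon of MIR17HG. miR-103a-3p is made from introns of PANK2 and PANK3 at chr20:3917541-3917563 (plus strand) and chr5:168560904-168560926 (minus strand). Only the PANK2 hairpin carries miR-103a-2-5p, on its other arm at chr20:3917504-3917526 (plus strand). miR-200c-3p lies at chr12:6963742-6963764 (plus strand) in an intron of MIR200CHG, and miR-21-5p at chr17:59841273-59841294 (plus strand) in an exon of VMP1.

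The S100 and total exRNA libraries differed in most miRNAs measured. Of 227 miRNAs tested, 67 (29.5%) were higher and 77 (33.9%) lower in S100, so 63.4% were called in either direction by edgeR's quasi-likelihood test (Benjamini-Hochberg adjusted p below 0.05). Among the calls, 65 rises and 73 falls exceeded 2-fold, and 45 in each direction exceeded 4-fold. The median log2 fold change (S100 minus total exRNA) was 2.49 over the rises, −2.35 over the falls and −0.34 over all tested. Putting miRNAs with no count in a whole group at the bound of 3 counts moved the median of the falls to −2.14 and left the other medians where they were. Libraries of the groups did not overlap for any of the 67 rises and for 65 of the 77 falls, beside 63.9% of all tested, 33.9% with every S100 library above and 30% with every S100 library below.

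The called miRNAs carried most of the counts. Those higher in S100 held 63.3, 61.6 and 58.6% of counts in the S100 libraries and 8.62, 14.3, 8.93 and 9.78% in total exRNA. Those lower in S100 held 13.2, 12.4 and 15.1% in S100 and 60.6, 48.4, 59.3 and 58.5% in total exRNA. Without the low-count filter, 118 of 1043 miRNAs were higher and 63 lower, which turned the balance of the calls towards rises (65.2% of calls, against 46.5%) as the median of the 227 miRNAs moved up by 0.45. All called miRNAs kept their sign in those of the 13 alternative settings that tested them (up to 7 of them went untested in a single setting), and 105 (58 higher, 47 lower) stayed called wherever they were tested. Without total exRNA replicate 2 there were 69 rises and 66 falls. Batch numbers 2, 3 and 4 occur in both groups, and 138 of the called miRNAs had the same sign within each of these 3 batches. For the 132 calls whose groups did not overlap, the selection fixes this, so the count is not separate support.

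**Figure D1:**
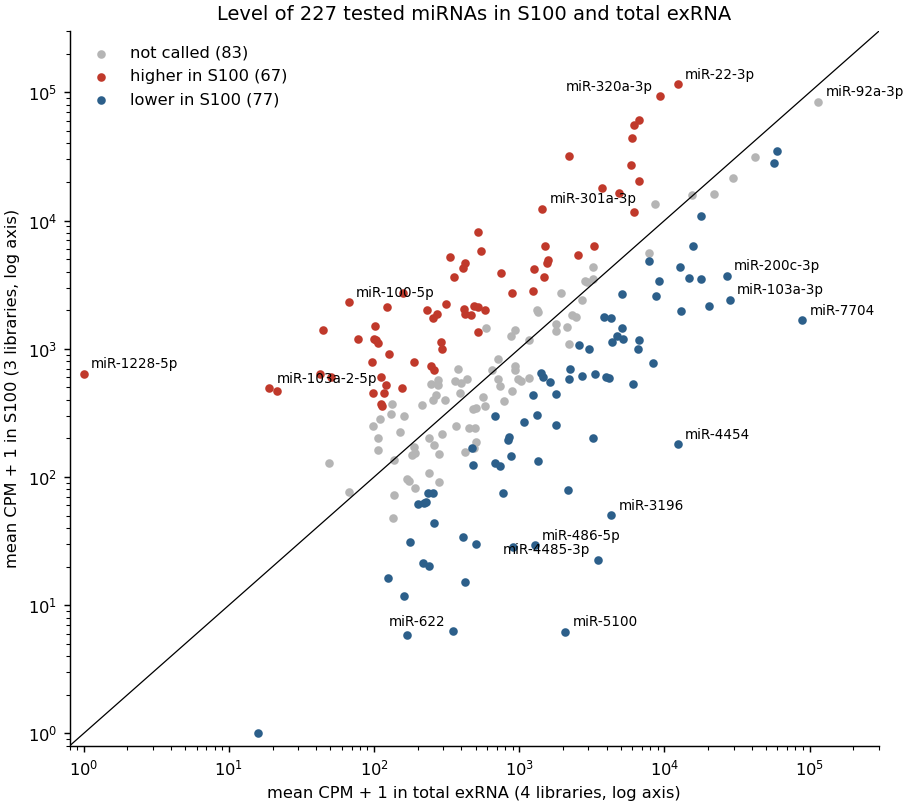
Mean CPM + 1 of each of the 227 tested miRNAs in total exRNA (x axis, 4 libraries) and S100 (y axis, 3 libraries), both log axes, coloured by call, with the line of equal level. The 67 rises and 77 falls lie on both sides of the line at high and low levels, and miR-92a-3p, the leading miRNA of total exRNA, lies close to it.

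miR-22-3p, a miRNA of many differentiated tissues, was the most abundant miRNA of S100. It stood at 136620, 92129 and 119991 CPM in S100 and at 10146, 17432, 8977 and 12718 CPM in total exRNA. Every S100 library lay far above every total exRNA library, a log2 difference of 3.24 ± 0.31 (SE, edgeR adjusted p = 1.78e-08). miR-320a-3p, whose hairpin is processed without Drosha, reached 88042, 91476 and 100043 CPM in S100 against 6260, 15685, 7042 and 8108 CPM. Replicate 2 was the highest of its total exRNA libraries but stayed well below S100 (log2 3.33 ± 0.36, edgeR adjusted p = 1.32e-07).

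Among the other rises, miR-423-5p was the most abundant in S100 with 62431, 60844 and 58359.7 CPM in S100 and 3599.5, 10758, 5751 and 6581 CPM in total exRNA (log2 3.18 ± 0.46). miR-378a-3p, encoded in the metabolic coactivator gene PPARGC1B, stood at 56968, 48451 and 60651 against 7173, 7488, 5032 and 4832 CPM (log2 3.17 ± 0.26). For both, the lowest S100 library was several times the highest total exRNA library. miR-483-5p, encoded in an intron of IGF2, stood at 37164, 51306 and 44551 against 5321, 7192, 5106 and 6470 CPM (log2 2.88 ± 0.29). miR-210-3p, the miRNA best known for its induction by hypoxia, stood at 32389, 28389 and 35487 against 2791, 651, 2028 and 3388 CPM, with replicate 2 lowest of total exRNA. Its log2 difference was 3.87 ± 0.54, and 4.48 without total exRNA replicate 4, so these 6 miRNAs all rose by more than 4-fold.

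miR-92a-3p, a growth-promoting member of the miR-17-92 cluster, led total exRNA and was not called. It stood at 72212, 82533 and 98848 CPM in S100 and at 140929, 104278, 123876 and 91608 CPM in total exRNA. The libraries overlapped and the difference did not pass the test (log2 −0.45 ± 0.27, edgeR adjusted p = 0.159). When scaled by library size only it was called lower (log2 −0.57). miR-372-3p and miR-93-5p, also among the 8 leading miRNAs of total exRNA, overlapped as well, with log2 differences of −0.43 ± 0.37 and −0.46 ± 0.34. The sign of all 3 turned under another setting, for miR-372-3p without total exRNA replicate 2 (0.19) and for miR-93-5p without S100 replicate 2 (0.06) or total exRNA replicate 4 (0.18). Without the low-count filter all 3 were within 0.02 of 0 on the log2 scale.

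Of the other leading miRNAs of total exRNA, 5 were lower in S100. miR-103a-3p, which acts on lipid and glucose metabolism, stood at 2198, 2043 and 3009 CPM in S100 against 32735, 16455, 29457 and 33988 CPM, a log2 difference of −3.54 ± 0.39 (edgeR adjusted p = 1.5e-07). miR-200c-3p, which keeps cells epithelial by repressing ZEB1 and ZEB2, stood at 3486, 3529 and 4163 against 27570.3, 28470.5, 24886 and 26519 CPM (log2 −2.85 ± 0.27, edgeR adjusted p = 1.78e-08). Both groups were tight for miR-200c-3p and lay far apart, while miR-103a-3p was lowest in replicate 2 among total exRNA libraries and still far above S100. miR-7704, annotated in an exon of HOXD1, stood at 1160.4, 1677 and 2149 against 149067, 37245, 106972 and 61840.1 CPM (log2 −5.74 ± 0.62), the largest fall among the 8 leading miRNAs of total exRNA. The fall held in all 12 pairs of an S100 and a total exRNA library.

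The falls of miR-21-5p and miR-373-3p were smaller and depended on single libraries. miR-21-5p, a miRNA raised in most carcinomas that represses PDCD4, stood at 25175, 23869.7 and 34799.8 CPM in S100 and 50498, 43949, 54730.2 and 77057 CPM in total exRNA. The groups did not overlap (log2 −1.02 ± 0.34, edgeR adjusted p = 0.0136). The call was lost without S100 replicate 2 (−0.63), 3 (−0.63) or 4 (−0.88) and without total exRNA replicate 4 (−0.51). miR-373-3p, an embryonic stem cell miRNA, stood at 34155, 20961 and 50003 against 56497, 83443, 48665 and 50011 CPM with a narrow overlap (log2 −0.77 ± 0.30). Its call was lost without S100 replicate 2 (−0.46) or 3 (−0.23) and without total exRNA replicate 2 (−0.51) or 4 (−0.52). Both calls were also lost without the low-count filter (−0.55 and −0.32).

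The largest rise among called, non-overlapping miRNAs that averaged at least 100 CPM in S100 was that of miR-1228-5p, a product of an LRP1 intron. It stood at 580.2, 936 and 393 CPM in S100, 413 counts in all, and had 0 counts in each total exRNA library. Set against 3 counts over the total exRNA group, it was at least 43.2-fold higher in S100. It also had 0 counts in all P40 and P100 libraries and averaged 5.37 CPM in cell lysate, below every S100 value. The P40 and P100 libraries held only 10017 to 27027 counts each, so a level well below that of S100 could be missed there.

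The next rises were those of miR-100-5p, a repressor of mTOR, and miR-7-5p, a repressor of EGF receptor and insulin receptor signalling. miR-100-5p stood at 2516, 2072 and 2322 CPM in S100 against 52.2, 147.97, 36.9 and 27.8 CPM (log2 4.97 ± 0.61, edgeR adjusted p = 4.4e-07; 5.87 without total exRNA replicate 2). miR-7-5p stood at 1438, 1232 and 1552 against 26.1, 74.0, 18.4 and 55.5 CPM (log2 4.91 ± 0.72, edgeR adjusted p = 5.21e-06). Most of the total exRNA values of both were near or below that library's floor, while the S100 values were all above 1000 CPM. miR-103a-2-5p, the other arm of the PANK2 hairpin, stood at 585, 308 and 587 against 0, 44.4, 0 and 27.8 CPM (log2 4.51 ± 0.80, and 5.71 without total exRNA replicate 2). miR-30a-3p stood at 534, 299.6 and 577 against 0, 44.4, 36.9 and 0 CPM (log2 4.17 ± 0.77, and 4.85 without total exRNA replicate 2). All total exRNA values of miR-103a-2-5p and miR-30a-3p were at or below that library's floor, so the size of both rises is uncertain.

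miR-193a-3p, known as a growth-restraining miRNA, stood at 2321, 3229 and 2653 CPM in S100 against 182.6, 237, 129.04 and 83.3 CPM (log2 4.07 ± 0.67). miR-296-5p, first known from blood vessel growth, stood at 7281, 9991 and 7140.3 against 339, 488, 498 and 749.7 CPM (log2 3.97 ± 0.46). For both, the lowest S100 library was well above the highest total exRNA library. miR-338-3p, encoded in an intron of AATK, stood at 6408, 3213 and 6071 against 209, 147.97, 423.98 and 555 CPM, with S100 replicate 3 lowest of its group (log2 3.98 ± 0.70, and 4.62 without total exRNA replicate 4). miR-1180-3p stood at 1186, 1028 and 1384 against 26.1, 104, 36.9 and 139 CPM (log2 3.95 ± 0.55, and 4.62 without total exRNA replicate 4). miR-320c completes the 10 largest rises and is described with its family.

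The largest falls were mostly late-numbered miRNA entries. miR-5100 had 3 counts over the S100 libraries against 370 over total exRNA, a ratio of 0.00254 (exact 95% counting interval 0.000522 to 0.00749). By library it stood at 5.13, 0 and 10.5 CPM in S100 and at 2974, 548, 2544 and 2249 CPM in total exRNA. miR-622 had 3 against 70 counts, a ratio of 0.0134 (exact 95% counting interval 0.00271 to 0.0409). Both had at least 1 S100 library at 0, and their fitted log2 differences of −8.26 and −5.69 moved with the library left out, to −7.46 for miR-5100 without S100 replicate 3 and for miR-622 to −4.99, −4.91 and −7.29 without S100 replicates 2, 3 and 4.

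miR-4485-3p stood at 5.13, 12.5 and 47.2 CPM in S100 against 5817, 1539, 4092 and 2471 CPM (log2 −7.24 ± 0.78, edgeR adjusted p = 2.09e-07; −6.54 without S100 replicate 2 and −7.98 without S100 replicate 4). miR-3196 stood at 35.9, 74.9 and 36.7 against 3104, 725, 5364 and 7997 CPM (log2 −6.38 ± 0.93; −5.59 without total exRNA replicate 4). miR-4454 stood at 51.3, 196 and 288 against 22328, 3596, 12793 and 10829.6 CPM (log2 −6.10 ± 0.70; −5.36 without S100 replicate 2). In all 3 the total exRNA level was lowest in replicate 2, and that library still exceeded every S100 library. miR-486-5p, abundant in red blood cells, stood at 41.1, 12.5 and 31.5 against 2113, 932, 1364 and 694 CPM (log2 −5.42 ± 0.61; −4.79 without S100 replicate 3). miR-3195 (log2 −4.92 ± 0.85; −4.07 without S100 replicate 4), miR-10401-5p (−4.75 ± 0.96; −4.004 without total exRNA replicate 4) and miR-4497 (−4.71 ± 1.15; −4.08 without S100 replicate 2) also fell without overlap, from total exRNA levels of 178 to 1327, 207 to 3776 and 147.97 to 737 CPM. miR-10395-3p was called lower with 0 counts in S100 and 3 in total exRNA, which is at the floor, so no fold is given, and the call was lost without any 1 of the S100 libraries, without the low-count filter and at equal depth.

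**Figure D2:**
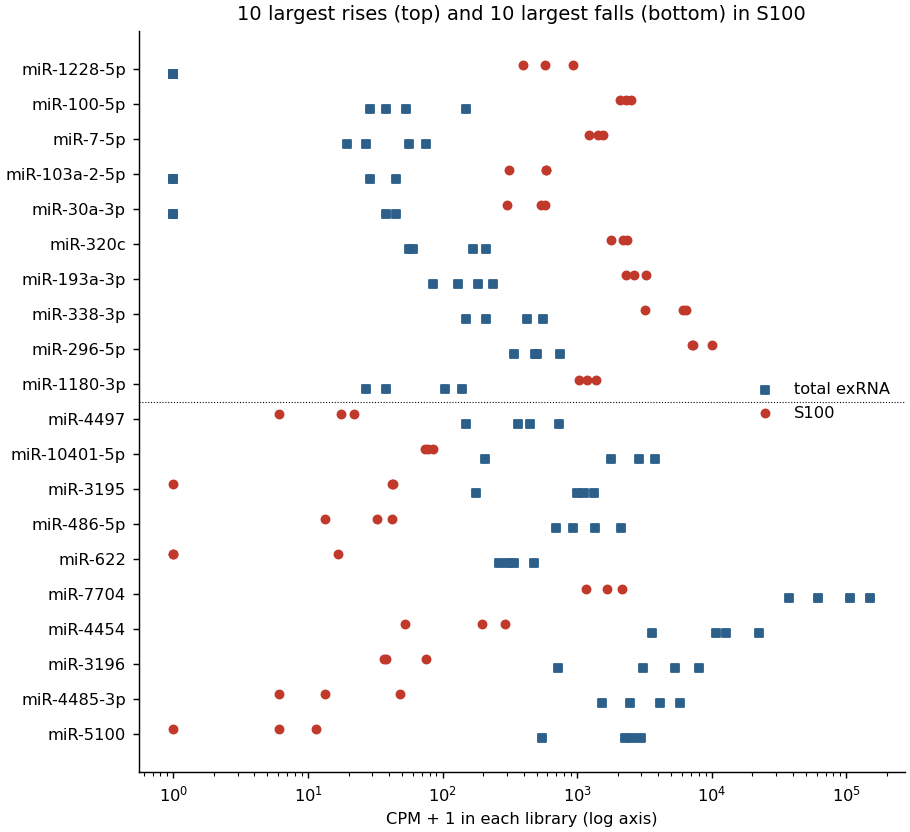
CPM + 1 (log axis) of the 10 miRNAs with the largest rises (above the dotted line) and the 10 with the largest falls (below it) in each S100 library (circles) and each total exRNA library (squares). The choice of non-overlapping miRNAs fixes that no circle of a rise reaches down to a square of the same miRNA. It likewise fixes that no circle of a fall reaches up to one. miR-1228-5p is at 0 in all 4 total exRNA libraries.

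In some families all tested members were called in 1 direction. All 4 tested members of the miR-320 family were higher in S100, beside 29.5% of all tested, and the family held 9.28, 10.4 and 9.41% of counts in S100 against 0.692, 1.81, 0.818 and 0.895% in total exRNA. Each rise stayed called in every alternative: miR-320a-3p, miR-320b (3367 to 4073 against 167 to 651 CPM, log2 3.32 ± 0.45), miR-320c (1794 to 2333 against 55.3 to 209 CPM, log2 4.16 ± 0.51) and miR-320d (1103 to 1284 against 36.9 to 157 CPM, log2 3.53 ± 0.65). The fifth member of the list, miR-320e, had 0 counts in all 7 libraries. All 3 tested members of the miR-378 family were higher too, beside the same 29.5%: miR-378a-3p, miR-378c (4467, 3737 and 4571 against 548, 369.9, 369 and 361 CPM, log2 3.37 ± 0.55) and miR-378d (626, 420.3 and 765 against 104, 74.0, 18.4 and 0 CPM, log2 3.54 ± 0.74). That family held 5.62% to 6.08% of counts in S100 and 0.543% to 0.870% in total exRNA. The copies differ in their 3′ ends and share the seed, as the members with a sequence show.
miR-320b: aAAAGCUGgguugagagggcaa
miR-320c: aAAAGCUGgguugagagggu
miR-320d: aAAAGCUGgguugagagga
miR-378a-3p: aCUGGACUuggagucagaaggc
miR-378c: aCUGGACUuggagucagaagagugg
miR-320b is made at chr1:116671787-116671808 (plus strand) and chr1:224257049-224257070 (minus strand), miR-320c at chr18:21683559-21683578 (plus strand) and chr18:24321716-24321735 (plus strand) and miR-320d at chr13:40727828-40727846 (minus strand) and chrX:140926172-140926190 (minus strand), while miR-378a-3p lies in PPARGC1B at chr5:149732867-149732888 (plus strand) and miR-378c at chr10:130962634-130962658 (minus strand). Reads of such near-identical miRNAs may have been exchanged between members, because how multiply matching reads were assigned is not given in the sources used here.

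The miR-29 family, which represses collagens and DNA methyltransferases, rose by less. All 3 tested members were higher, beside 29.5% of all tested: miR-29b-3p (637, 845 and 876 against 287, 252, 129.04 and 83.3 CPM, log2 2.04 ± 0.61), miR-29c-3p (log2 1.18 ± 0.46) and miR-29a-3p (log2 1.07 ± 0.39). The groups did not overlap for any of them. The calls of miR-29c-3p and miR-29a-3p were lost without total exRNA replicate 3 (1.03 and 0.91) and at equal depth (0.98 and 0.95).

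Other families were lower in S100. Both tested members of the miR-103a and miR-107 family fell, beside 33.9% lower of all tested: miR-103a-3p and miR-107 (518.6, 591 and 792 CPM in S100 against 4669, 1820.1, 3171 and 3749 CPM in total exRNA, log2 −2.40 ± 0.36). Together they held 0.266% to 0.332% of counts in S100 and 2.004% to 3.95% in total exRNA. All 3 tested members of the miR-15/16 seed family, repressors of BCL2 and cyclin D1, were lower, again beside 33.9%, and 2 of these calls rested on single libraries. miR-16-5p fell most, from 16406, 16810, 18950 and 19521 CPM in total exRNA to 3871, 3608 and 3088 CPM in S100 (log2 −2.35 ± 0.32, edgeR adjusted p = 1.73e-06), and its groups lay several-fold apart.
miR-15b-5p: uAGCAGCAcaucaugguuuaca
miR-16-5p: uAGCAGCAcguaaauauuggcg
miR-15b-5p and miR-16-5p share the seed and differ beyond it. miR-15b-5p (log2 −1.94 ± 0.67) lost its call without S100 replicate 2, 3 or 4 (−1.73, −1.47, −1.68) or total exRNA replicate 4 (−1.49). miR-15a-5p (log2 −1.13 ± 0.46) lost it without any 1 of the 7 libraries, where it ranged from −0.75 to −1.10, and with the replicate number as a block (−0.97). Both were also lost without the low-count filter (−1.49 for miR-15b-5p and −0.67 for miR-15a-5p).

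Of 5 tested members of the miR-200 family, the main guardians of the epithelial state, 4 were lower and none higher, beside 33.9% lower and 29.5% higher of all tested. The family held 0.656, 0.740 and 0.703% of counts in S100 and 3.67, 4.19, 3.65 and 3.65% in total exRNA. Beside miR-200c-3p, miR-200b-3p stood at 416, 412 and 503 against 1826, 1687, 1825 and 1777 CPM (log2 −1.999 ± 0.51) and miR-200a-3p at 816, 674 and 608 against 2295, 1924, 2507 and 2277 CPM (log2 −1.68 ± 0.39). Neither overlapped between the groups. miR-141-3p (log2 −1.11 ± 0.38) lost its call without S100 replicate 2 (−0.68), 3 (−0.84) or 4 (−0.89) or total exRNA replicate 4 (−0.78). Without the low-count filter the calls of miR-141-3p and miR-200a-3p were lost (−0.65 and −1.23). In the miR-183 cluster, known from sensory epithelia, both tested members were lower, beside 33.9% of all tested. These were miR-182-5p and miR-183-5p (log2 −2.72 ± 0.61 and −2.83 ± 0.56), and miR-96-5p was not tested. The cluster held 0.367, 1.54, 0.342 and 0.317% of counts in the total exRNA libraries, highest in replicate 2, and the log2 differences were −1.77 and −1.97 without it. miR-26a-5p, a repressor of EZH2, was lower at 4138, 3595 and 5368 against 12703, 13303, 11964 and 13634 CPM (log2 −1.56 ± 0.32), and so was miR-181a-5p at 1124, 965 and 1484 against 5425, 6659, 4369 and 4137 CPM (log2 −2.11 ± 0.38). The other tested members of their families, miR-26b-5p (log2 −0.30 ± 0.49) and miR-181b-5p (−0.53 ± 0.38), overlapped and did not pass the test.

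**Figure D3:**
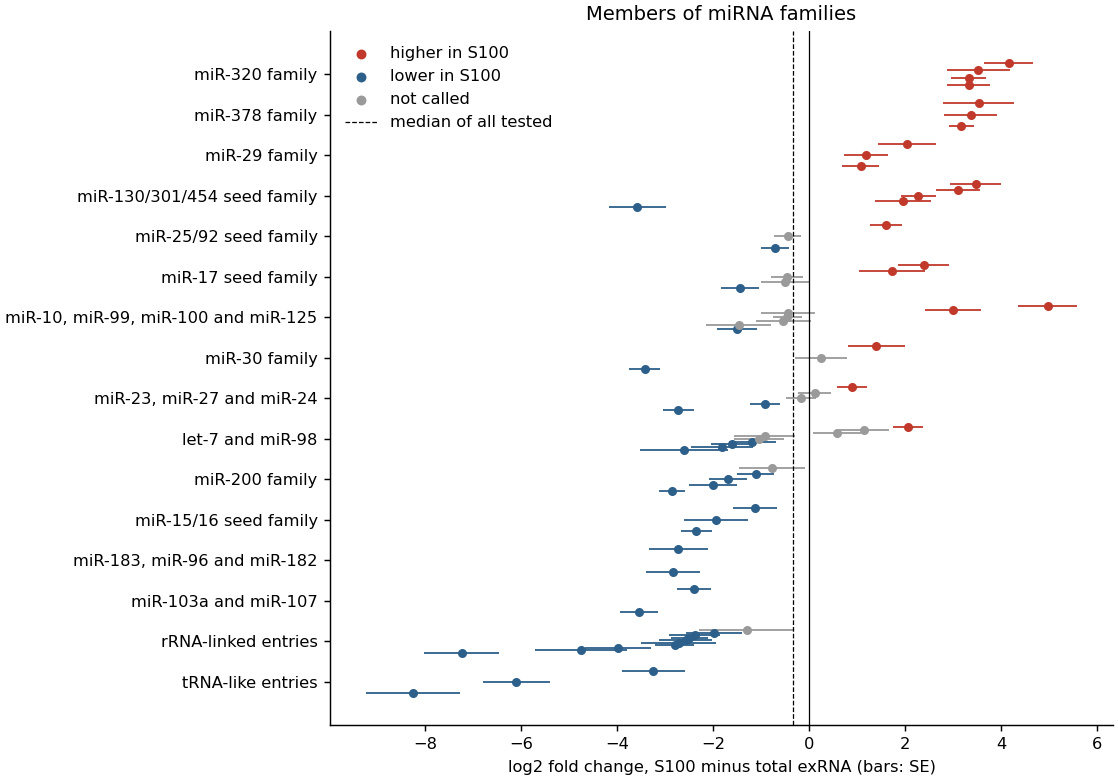
Log2 fold change (S100 minus total exRNA) with its SE for each tested member of 16 miRNA families and groups, coloured by call, with the median of all 227 tested miRNAs as a dashed line. All members of the miR-320, miR-378 and miR-29 families lie on the right, those of the miR-103a, miR-15/16 and miR-183 groups on the left, and several families hold members on both sides.

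In 7 of 32 seed families with at least 2 tested members, calls went both ways. In 5 all members were higher, in 5 all lower, in 9 some were lower, in 4 some higher, and 2 had no call. The pairs below were chosen because their members moved in opposite directions, so their values are a description. Their sequences show how close the members are.
miR-301a-3p: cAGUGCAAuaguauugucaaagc
miR-301b-3p: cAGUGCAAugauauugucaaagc
miR-130b-3p: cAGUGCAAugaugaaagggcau
miR-454-3p: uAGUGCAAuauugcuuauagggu
miR-100-5p: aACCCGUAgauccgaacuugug
miR-99b-5p: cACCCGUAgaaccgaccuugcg
miR-23a-3p: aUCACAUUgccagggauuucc
miR-23b-3p: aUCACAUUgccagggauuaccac
let-7b-5p: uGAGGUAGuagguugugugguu
let-7a-5p: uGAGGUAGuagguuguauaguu
miR-106a-5p: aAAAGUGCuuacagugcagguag
miR-20a-5p: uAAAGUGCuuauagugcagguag
The seeds are the same within each pair. Counting from 1 at the 5′ end, miR-23a-3p differs from miR-23b-3p within their common length by U19A alone, let-7b-5p from let-7a-5p by G17A and G19A, and miR-106a-5p from miR-20a-5p by A1U and C12U, the first base and letter being those of the member that rose. miR-100-5p differs from miR-99b-5p by A1C, U11A, A16C and U21C.

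In the miR-130, miR-301 and miR-454 seed family, which includes repressors of TGF-beta signalling, 4 of 5 members were higher and 1 lower, beside 29.5% and 33.9% of all tested, and all 5 calls stayed in every alternative. miR-301a-3p stood at 12209.9, 12634 and 12309 CPM in S100 against 1174, 1109.8, 1438 and 2027 CPM (log2 3.11 ± 0.46). miR-130b-3p (log2 2.28 ± 0.37; 2.90 without total exRNA replicate 4), miR-301b-3p (3.47 ± 0.53; 4.13 without total exRNA replicate 4) and miR-130a-3p (1.96 ± 0.59) rose with it. miR-454-3p went the other way, with 35.9, 20.8 and 41.9 against 261, 651, 295 and 417 CPM (log2 −3.58 ± 0.59). miR-301a-3p and miR-454-3p both lie in introns of SKA2, at chr17:59151149-59151171 (minus strand) and chr17:59137787-59137809 (minus strand). Counts of miR-301a-3p were 340, 607 and 294 times those of miR-454-3p in the S100 libraries and 4.50, 1.70, 4.88 and 4.87 times in total exRNA. Such ratios need no scaling between libraries, but miR-454-3p had only 7, 5 and 8 counts in the S100 libraries.

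miR-100-5p and miR-99b-5p, which share the seed of the miR-99 family, changed places. The count ratio of miR-100-5p to miR-99b-5p was 4.45, 4.93 and 7.03 in S100 and 0.0345, 0.0917, 0.0323 and 0.0400 in total exRNA. The latter ratios rest on only 2, 10, 2 and 1 counts of miR-100-5p. miR-99b-5p stood at 565, 420.3 and 330.3 against 1513, 1613, 1143 and 694 CPM (log2 −1.502 ± 0.41), and its call was lost without S100 replicate 4 (−1.01) and without the low-count filter (−1.06). miR-125b-5p, from the same list of 7, stood at 719.9 to 893 CPM in S100 and 44.4 to 202.8 CPM in total exRNA (log2 3.000 ± 0.58; 3.72 without total exRNA replicate 3). The other 4 members did not pass the test.

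miR-23a-3p and miR-23b-3p differ by a single base within their common length, miR-23b-3p being longer at its 3′ end, and were split as well. Their count ratio was 16.2, 10.7 and 9.46 in S100 and 0.786, 1.18, 0.802 and 0.994 in total exRNA. Most of this lay in miR-23b-3p, at 806, 811 and 1384 against 8034, 7132, 6433 and 4887 CPM (log2 −2.73 ± 0.32), while miR-23a-3p rose by 0.90 ± 0.31. miR-27b-3p, from the same hairpin cluster as miR-23b-3p, was lower (log2 −0.91 ± 0.32), a call lost without S100 replicate 2 (−0.69), 3 (−0.45) or 4 (−0.70) or total exRNA replicate 2 (−0.77) or 4 (−0.54), or without the low-count filter (−0.46).

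The let-7 family, which restrains growth by repressing RAS, HMGA2 and LIN28, had 9 tested members with 1 higher and 4 lower, the latter not far from the 33.9% lower of all tested. let-7b-5p stood at 7974, 4344 and 6558 CPM in S100 against 1617, 1287, 1475 and 1638 CPM (log2 2.07 ± 0.32), with no overlap. let-7a-5p stood at 1350.4, 633 and 1007 against 1774, 5031, 2507 and 2832 CPM (log2 −1.61 ± 0.42), and its call was lost without S100 replicate 3 (−1.09). The count ratio of let-7b-5p to let-7a-5p was 5.90, 6.87 and 6.52 in S100 and 0.912, 0.256, 0.588 and 0.578 in total exRNA. let-7f-5p (log2 −2.61 ± 0.91), miR-98-5p (−1.81 ± 0.65) and let-7e-5p (−1.18 ± 0.49) were the other falls. Their calls rested on single libraries: that of let-7f-5p was lost without S100 replicate 3 (−2.04) or 4 (−2.001) or total exRNA replicate 2 (−1.89) or 4 (−2.10), that of miR-98-5p without any 1 S100 library (−1.32 to −1.83) or total exRNA replicate 4 (−1.59), and that of let-7e-5p without any 1 S100 library (−0.69 to −1.18) or total exRNA replicate 2 (−0.98) or 4 (−0.64). These 3 calls were also lost without the low-count filter (−2.19, −1.39 and −0.74).

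The miR-17 seed family, repressors of the cell cycle inhibitor CDKN1A, had 5 tested members with 2 higher and 1 lower, beside 29.5% higher and 33.9% lower of all tested. miR-17-5p (log2 −0.49 ± 0.51) and miR-93-5p overlapped and did not pass the test. miR-106a-5p, from the X-linked cluster, was higher, at 2916 to 4676 CPM in S100 and 399.5 to 1069 CPM in total exRNA (log2 2.39 ± 0.53), whereas miR-20a-5p, from the miR-17-92 cluster, stood at 3101, 3591 and 3465 against 10407, 9234, 8516 and 8442 CPM (log2 −1.43 ± 0.40). miR-19a-3p of the same cluster, from another seed family, was lower at 1109, 1303 and 1374 against 3965, 8257, 2507 and 4137 CPM (log2 −1.90 ± 0.44). The count ratio of miR-106a-5p to miR-20a-5p was 0.940, 1.17 and 1.35 in S100 and 0.103, 0.0433, 0.108 and 0.0724 in total exRNA. The call of miR-20a-5p was lost without S100 replicate 2 (−1.05) or 4 (−1.11) and without the low-count filter (−0.97). miR-106b-5p was higher (log2 1.73 ± 0.69), a call lost without total exRNA replicate 1 (1.63) or 3 (1.68), with the replicate block (1.44) and with library size only (1.59).

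In the miR-25/92 seed family miR-92b-3p was higher at 1997, 2984 and 3156 against 913, 991, 848 and 805 CPM (log2 1.60 ± 0.33), with no overlap. miR-25-3p was lower (log2 −0.71 ± 0.29), but its call was lost without any 1 of the 7 libraries (−0.22 to −0.68), with DESeq2 (−0.56), without the low-count filter (−0.26) and with the replicate block (−0.64). In the miR-30 family, miR-30d-5p stood at 657, 836 and 818 against 7955, 8893, 7889.7 and 8414 CPM (log2 −3.42 ± 0.32, edgeR adjusted p = 1.78e-08), among the steepest falls of an abundant miRNA. miR-30c-5p was higher (log2 1.40 ± 0.59), a call lost without S100 replicate 2 (1.51), without total exRNA replicate 1 (1.39) or 3 (1.27), with the replicate block (1.14), with library size only (1.27) and at equal depth (1.21). miR-221-3p, a repressor of the cell cycle inhibitor CDKN1B, was higher at 29133, 17553 and 34223 against 5321, 9189, 4055 and 4943 CPM (log2 2.20 ± 0.34), while miR-222-3p, which shares its seed and cluster, overlapped and did not pass the test (log2 0.59 ± 0.43, edgeR adjusted p = 0.232).

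**Figure D4:**
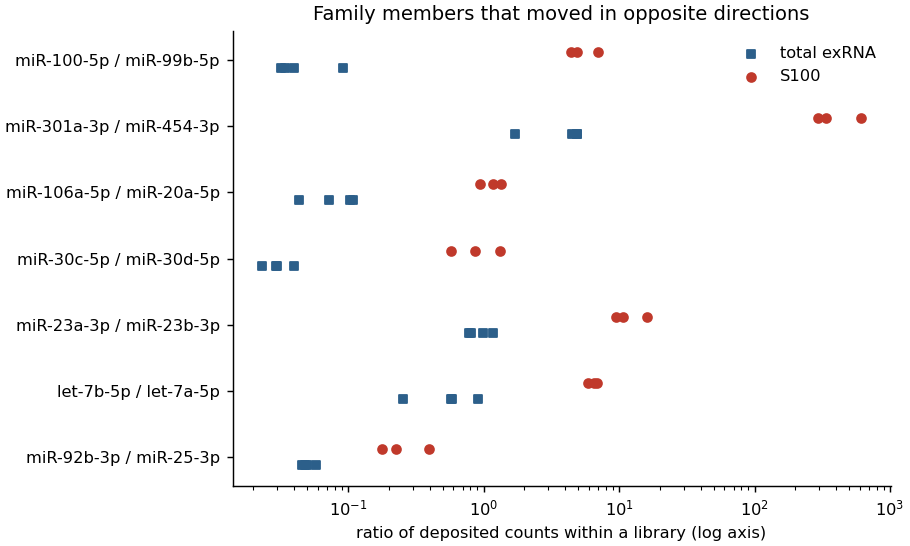
Ratio of deposited counts within each library (log axis) for 7 pairs of related miRNAs, the member that rose over the member that fell, in S100 (circles, 3 libraries) and total exRNA (squares, 4 libraries). The circles lie to the right of the squares in each pair, as the choice of pairs fixes, and the gap is widest for miR-301a-3p over miR-454-3p and for miR-100-5p over miR-99b-5p. These widest gaps rest on few counts of miR-454-3p in S100 and of miR-100-5p in total exRNA.

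Entries of the miRNA database that coincide with other RNA classes were mostly lower in S100. Of 10 tested entries linked to nuclear or mitochondrial ribosomal RNA, 9 were lower and none higher, beside 33.9% lower of all tested, and 7 of the 9 stayed called in every alternative. Their median log2 fold change was −2.64, beside −0.34 over all tested. They held 0.324, 0.611 and 0.430% of counts in S100 and 2.77, 1.20, 3.88 and 7.02% in total exRNA, where replicate 2 had the least and replicate 4 the most. Of 3 tested entries close to transfer RNA, all 3 were lower and stayed so: miR-4454, miR-5100 and miR-1260b (20.5, 24.97 and 15.7 against 182.6, 104, 239.6 and 333 CPM, log2 −3.24 ± 0.67). They held 0.00754% to 0.0279% of counts in S100 and 0.466% to 2.54% in total exRNA. Sequences of 4 of these entries are shown as examples, with that of miR-7704, which is in neither list.
miR-7704: cGGGGUCGgcggcgacgug
miR-4485-3p: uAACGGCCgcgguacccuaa
miR-5100: uUCAGAUCccagcggugccucu
miR-4454: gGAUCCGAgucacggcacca
miR-663b: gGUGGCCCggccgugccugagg
miR-7704 lies at chr2:176188843-176188861 (plus strand), miR-4485-3p at chr11:10508277-10508296 (minus strand) in MTRNR2L8, a nuclear copy of mitochondrial ribosomal RNA, and miR-663b at chr2:132256970-132256991 (minus strand) in an intron of ANKRD30BL. miR-5100 lies at chr10:42997630-42997651 (plus strand) and miR-4454 at chr4:163093607-163093626 (minus strand).

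Within the entries linked to ribosomal RNA, miR-663a and miR-663b varied widely between total exRNA libraries. miR-663a stood at 1499, 2555 and 1845 CPM in S100 against 5138, 1228, 8701 and 36709.7 CPM, with replicate 2 below all S100 libraries and replicate 4 far above the rest. Its log2 difference of −2.71 ± 0.78 was lost without S100 replicate 2 (−2.16) or 4 (−2.32), without total exRNA replicate 4 (−1.05) and without the low-count filter (−2.21). miR-663b stood at 220.8, 204 and 178 against 1852, 947, 3042 and 6998 CPM (log2 −3.98 ± 0.68; −2.95 without total exRNA replicate 4). Both arms of miR-10396a and miR-10396b were lower, from −2.80 for miR-10396a-5p to −1.98 for miR-10396b-3p. Of these, miR-10396a-3p (log2 −2.38) was −1.72 without total exRNA replicate 4, miR-10396b-5p (−2.49) was −1.89 without S100 replicate 2, and the call of miR-10396b-3p was lost without S100 replicate 2 (−1.34) or 4 (−1.61). miR-3648 was lower as well (log2 −2.57 ± 0.55), at −1.90 without S100 replicate 4. The snRNA-linked miR-1246 was higher at 5063, 3358 and 6249 against 1382, 1435, 1807 and 1722 CPM (log2 1.62 ± 0.39), whereas the snoRNA-linked miR-3651 was lower at 205, 233 and 141.5 against 1148, 666, 995 and 555 CPM (log2 −2.11 ± 0.38).

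Direction also went with the miRNA number, which follows the order of entry into the database. Of 28 tested miRNAs numbered 3000 and above, 1 was higher (miR-4690-5p, named after its value was seen) and 21 lower, with a median log2 fold change of −2.57 (−2.53 with miR-10395-3p at its bound). Of 10 numbered from 1000 up to 3000, 7 were higher and 2 lower, with a median of 1.65. Of 189 numbered below 1000, 59 were higher and 54 lower, with a median of −0.12. Among all 227 tested, 29.5% were higher and 33.9% lower, with a median of −0.34. The 21 late-numbered falls share members with the ribosomal and transfer RNA lists above. These are miR-3648, miR-4485-3p, miR-10401-5p, both arms of miR-10396a and miR-10396b, miR-4454 and miR-5100. For them the number is not a separate observation.

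The 2 arms of a hairpin and neighbouring hairpins did not always move together. Both arms were tested for 31 hairpins: in 11 both were called in the same direction, in 1 in opposite directions, and in 19 at least 1 arm was not called. The opposite pair was miR-103a-2-5p, which rose from total exRNA values at or below the floor, and miR-103a-3p, which fell. The latter also comes from the PANK3 hairpin. Of 28 groups of hairpins on the same strand within 10000 bases of each other, 21 had calls in 1 direction only, 6 in both, and 1 had none. The 21 include groups with only 1 called miRNA, which could not be split. A miRNA with several hairpin copies can count in more than 1 group. The gut epithelial pair at chromosome 11 was among the 6: miR-192-5p stood at 19059, 13812 and 16194 against 3443, 7206, 3834 and 4943 CPM (log2 1.75 ± 0.39), while miR-194-3p stood at 56.5, 24.97 and 47.2 against 235, 207, 332 and 249.9 CPM (log2 −2.54 ± 0.46). miR-194-5p was lower too (log2 −1.28 ± 0.44), with a call lost without any 1 S100 library (−1.03 to −0.86) or total exRNA replicate 1 (−1.07) or 4 (−0.79), or without the low-count filter (−0.80). miR-215-5p, the homologue of miR-192-5p on chromosome 1, was higher (log2 1.29 ± 0.47). That value was 1.87 without total exRNA replicate 2, and the call was lost without total exRNA replicate 1 (1.17) or 3 (1.20). miR-100-5p and let-7a-5p, both from MIR100HG on chromosome 11, and let-7b-5p and let-7a-5p on chromosome 22 were also split, although let-7a-5p has further copies.

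Rises and falls had the same median base composition. Mature sequences were found for 59 of the 67 rises and 67 of the 77 falls. Median GC content was 50% in the rises, in the falls and in all tested, and median length was 22 bases in each. Across miRNAs, which are not independent replicates, the log2 fold change and GC content had a Pearson r of −0.16 and a Spearman rho of −0.04 over all tested miRNAs with a sequence, and 0.10 and 0.18 over the 170 of them numbered below 1000. For the log2 fold change and length they were 0.26 and 0.14 over all tested miRNAs with a sequence. The motif GGAG, searched on the RNA strand because mature miRNAs are single-stranded, was in 11.9% of the rises, 10.4% of the falls and 10.1% of all tested, beside 15.7% of the 2370 mature sequences in the table. The motif CCCU was in 13.6%, 5.97%, 10.1% and 11.9% of the same sets. A match to such letters is a description and not a binding site.

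Of the 11 epithelial markers, 2 were higher in S100 (miR-192-5p and miR-215-5p) and 6 lower, beside 29.5% higher and 33.9% lower of all tested. This adds miR-203a-3p to the falls given above (1012, 1382 and 1950.2 against 4591, 5238, 4184 and 6442 CPM, log2 −1.82 ± 0.39). Markers of other tissues summed to small shares. Of 7 blood cell miRNAs, 6 were listed and miR-142-5p was at 0 in all 7 libraries. The 2 that were tested, miR-486-5p and miR-451a, were lower, beside 33.9% of all tested. The listed blood cell miRNAs summed to 0.00799% to 0.0151% of counts in S100 and 0.0900% to 0.232% in total exRNA. miR-451a, the Dicer-independent miRNA of red blood cells, stood at 46.2, 41.6 and 99.6 against 182.6, 474, 111 and 139 CPM (log2 −1.88 ± 0.62), a call lost without S100 replicate 2 (−1.41) or 3 (−1.39), without total exRNA replicate 2 (−1.12), without the low-count filter (−1.45) and at equal depth (−1.46). Whether blood cell miRNAs have a part in other falls was not tested. Liver markers (2 of 2 listed) held 0.0311% to 0.0503% in S100 and 0.0104% to 0.0487% in total exRNA, muscle markers (5 of 7 listed, miR-206 and miR-208a-3p at 0) 0.0110% to 0.0131% and 0.00871% to 0.0373%, and mesenchymal markers (5 of 5) 0.0256% to 0.0427% and 0.0487% to 0.105%. Endothelial markers (2 of 2) held 0.0513% to 0.0729% and 0.0130% to 0.0552%, and placental markers (3 of 9) at most 0.000503% and 0.00581%. Of the liver, mesenchymal and endothelial lists 1 member each was tested, and it was not called, whereas no muscle or placental marker passed the low-count filter. Neural markers (4 of 6 listed, miR-124-3p and miR-219a-5p at 0) held 0.220% to 0.254% and 0.143% to 0.232%. Of these, 1 of 3 tested, miR-9-5p, was lower (log2 −1.70 ± 0.61), near the 33.9% of all tested. Its call was lost without any 1 S100 library (−1.08 to −1.67) or total exRNA replicate 2 (−1.32) or 4 (−1.46), without the low-count filter (−1.27) and at equal depth (−1.64).

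The 3 miRNAs of a short list known from complexes with Argonaute2 in blood plasma were not called higher, beside 29.5% of all tested. So few members cannot be told apart from that share. miR-16-5p was lower, miR-92a-3p did not pass the test, and miR-122-5p stood at 508, 325 and 351 against 104, 414, 258 and 444 CPM with overlapping libraries (log2 0.36 ± 0.51). Together they held 7.501% to 9.22% of counts in S100 and 11.7% to 15.8% in total exRNA. The embryonic miR-371, miR-372 and miR-373 group, expressed by this line, had 5 tested members with none higher and 2 lower, a share near the 33.9% of all tested: miR-373-3p and miR-371a-5p (3692, 2779.8 and 4273 against 15859, 15375, 15337 and 12829 CPM, log2 −2.05 ± 0.29).

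The levels in the other 3 groups place both ends of the comparison. miR-22-3p averaged 15995 ± 5425 CPM in P40 and 10516 ± 2079 CPM in P100 (SD, n = 4 each) and 11654 ± 1547 CPM in lysate (n = 3), beside 12318 ± 3749.8 CPM in total exRNA (n = 4) and 116247 ± 22481 CPM in S100 (n = 3). miR-301a-3p likewise averaged 401 ± 324, 588 ± 197 and 343 ± 191 CPM in P40, P100 and lysate, below both groups compared. miR-103a-3p was highest in lysate (63491 ± 16535 CPM) and lower in total exRNA, P40 (15969 ± 7429), P100 (8401 ± 1630.2) and S100 in that order of means. miR-4485-3p was highest in P100 (15331 ± 2811 CPM), followed by P40 (8923 ± 4022), total exRNA and lysate (1227 ± 1115), with S100 last. Since P40, P100 and lysate were not precipitated, preparation and fraction cannot be told apart in these levels.

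Total exRNA is the medium before it was divided, yet its mean level was not between those of P40, P100 and S100 for every miRNA. It lay between them for 112 of 227, above all 3 for 61 and below all 3 for 54. Unrelated group means would split in nearly the same way, so these counts are not read as a result about the medium. It exceeded the highest of the 3 by more than 2-fold for 13 miRNAs and lay more than 2-fold below the lowest for 14. Among the 13 were miR-21-5p, miR-4454, miR-5100, miR-3196, miR-663b and miR-1260b. miR-5100 averaged 2079 ± 1063 CPM in total exRNA, 105 ± 89.8 in P40, 43.2 ± 60.9 in P100 and 5.21 ± 5.24 in S100. miR-4454 averaged 12386 ± 7718, 2770.2 ± 1649, 2019 ± 536 and 178 ± 119 CPM in the same groups. The P40 and P100 libraries held only 10017 to 27027 counts each, so the pellet levels of miR-5100 rest on few counts.

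**Figure D5:**
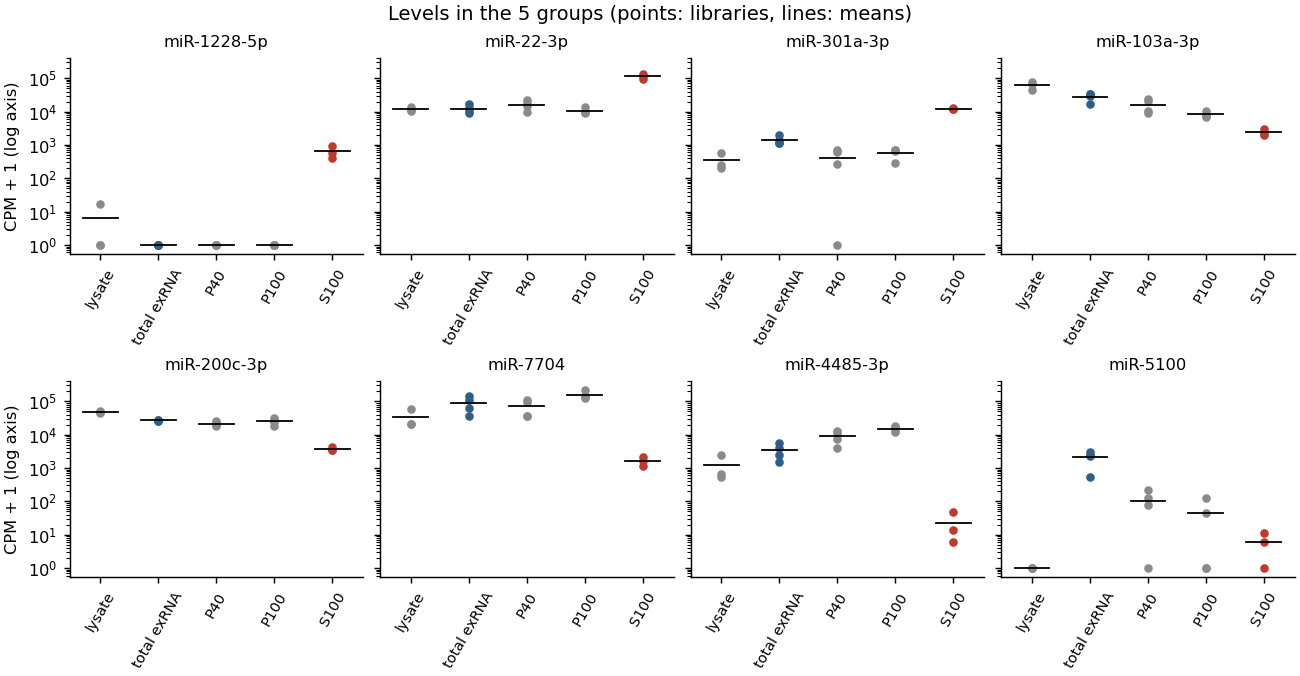
CPM + 1 (log axis) of 8 miRNAs in cell lysate, total exRNA, P40, P100 and S100, with a point for each library and a line for each group mean. miR-1228-5p, miR-22-3p and miR-301a-3p are highest in S100, miR-103a-3p, miR-200c-3p, miR-7704 and miR-4485-3p are lowest there, and miR-5100 is highest in total exRNA.

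S100 libraries listed 622 to 662 miRNAs and total exRNA libraries 384 to 438, but the former were sequenced more deeply. Drawn to 34427 counts each, the count of the smallest library, S100 libraries held 415 ± 6.48 miRNAs (SD, n = 3) and total exRNA libraries 390 ± 11.6 (n = 4). The difference of 24.9 had p = 0.0571 in a two-sided exact permutation test, the smallest value that 3 against 4 libraries allow. With at least 3 counts asked of a miRNA, the difference was 5.175 (two-sided exact permutation p = 0.171). Over all libraries 520 miRNAs were listed in both groups, 338 in S100 alone and 110 in total exRNA alone. The 10 most abundant miRNAs held 56.2 ± 0.216% of counts in S100 and 53.0 ± 2.14% in total exRNA (two-sided exact permutation p = 0.0571).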

How the data were processed

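Libraries of small RNA from Caco-2 cells and medium were prepared with RealSeq-AC chemistry, and 50 bases were sequenced from one end, per the labels. The deposited values are the authors' raw counts of mature human miRNAs, with a file for each library. The tools named are Bowtie2, FastQC and cutadapt 1.16, on build GRCh38, per the submitters' processing notes. Their settings, the miRNA annotation and the treatment of multiply matching reads are not given in the sources used here. The labels name no molecular identifiers, and counting error is all that the intervals and floors cover.

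A miRNA absent from a file was taken as 0. S100 replicate 1 (48 counts) was left out as it held fewer than 100 miRNAs, which left 18 libraries. Counts were fitted in R 4.3.3 with edgeR 4.0.16: filterByExpr (minimum count 10, minimum total 15), TMM scaling, 1 robust quasi-likelihood model over the 5 groups and the contrast S100 minus total exRNA, with Benjamini-Hochberg adjustment over 227 miRNAs and calls at an adjusted p below 0.05. The 227 miRNAs held 98.5% to 98.9% of counts. Log2 fold changes were computed from the deposited counts and carry an SE derived from F. Scripts were tested on simulated data. No libraries were duplicates: the chi-square per degree of freedom was 6.73 to 64.3 within groups.

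Replicate numbers equal the batch numbers of the labels and so pair samples by label. Same-numbered S100 and total exRNA libraries had correlations of 0.15, 0.08 and −0.18 in their deviations from the group means. The model without a replicate block is reported, and the block was an alternative. The other alternatives were library size only, DESeq2 1.42.0, no low-count filter, the 7 libraries alone, equal depth and each library left out. A replicate block on the 7 libraries, library size without the filter and TMM with singleton pairing were chosen after seeing the data.

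The miRNAs named were the 10 largest rises and 10 largest falls among called miRNAs whose libraries did not overlap (from 100 CPM on average in the higher group), the 8 leading miRNAs of each group, called and abundant members of the lists, arms called in opposite directions and called miRNAs at 0 in a group. The members and lists were chosen with earlier results of these data known. Sequences are from RefSeq, host genes from GENCODE.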

Additional observations from a re-analysis of the deposited data

Results flagged for a closer look

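Of 131 sets of 4 total exRNA values examined, 11 had 1 library far outside the other 3, by a criterion that chance meets in about 5% of sets, and 9 of the 11 were in replicate 2. In replicate 2, miR-372-3p stood at 83399 CPM (27116 to 29990 in the other libraries), miR-182-5p at 9411 (1991 to 2217), miR-183-5p at 4114 (805 to 1304) and miR-215-5p at 2812 (889 to 1198). The share of counts of the miR-371, miR-372, miR-373 and miR-302 group was 22.3% there (11.1% to 11.7% in the others), that of the miR-200 family 4.19% (3.65% to 3.67%), and that of the miR-183 cluster 1.54% (0.317% to 0.367%). The miR-221 and miR-222 share was 1.11% (0.624% to 0.677%), and that of the miR-10, miR-99 and miR-125 families was 0.777% (0.436% to 0.484%). In replicate 1, miR-378c stood at 548 CPM (361 to 370 in the others), and in replicate 3, miR-29a-3p stood at 1622 CPM (2749 to 2974). Of these miRNAs, only miR-29a-3p lost its call when the library in question was left out, and miR-372-3p, which was not called, changed sign.

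The S100 library left out, replicate 1, held 48 counts, of which 6 were miR-378a-3p, 6 miR-92a-3p and 4 miR-320a-3p, the only miRNAs above the floor of 3 counts. All were among the leading miRNAs of the other S100 libraries, but miR-92a-3p also led total exRNA. miR-22-3p, the most abundant miRNA of the other S100 libraries, was not above the floor. So few counts cannot show whether this library resembled the others.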

How the results depend on the processing

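The number of rises was 118 without the low-count filter (1043 miRNAs tested) and within 1.5 times the main 67 in all other settings. The replicate block gave 65 rises and 71 falls, and leaving out 1 library each time gave 60 to 74 rises and 54 to 71 falls. Rises made up 56.6% to 56.9% of calls without 1 S100 library, 55.3% without total exRNA replicate 4, and 46.5% with all. Over the named miRNAs and all settings, 1368 values kept direction and call, 137 kept direction only, 1 gained a call (miR-92a-3p with library size only) and 6 reversed. The reversals were in miRNAs that were not called: miR-372-3p without the filter (0.0047) and without total exRNA replicate 2 (0.19), miR-92a-3p without the filter (0.016), and miR-93-5p without the filter (0.020), without S100 replicate 2 (0.06) and without total exRNA replicate 4 (0.18). Without 1 library, miR-372-3p ranged from −0.60 to 0.19 and miR-93-5p from −0.55 to 0.18. Besides the calls named as lost under the block (miR-106b-5p, miR-15a-5p, miR-25-3p and miR-30c-5p), it changed no call of a named miRNA. Singleton pairing lost the calls of miR-25-3p, miR-373-3p, miR-27b-3p, miR-21-5p, miR-141-3p, miR-15a-5p and let-7e-5p. Library size without the filter lost those of miR-30c-5p, miR-215-5p, miR-29c-3p, miR-29a-3p, miR-23a-3p, miR-25-3p, miR-27b-3p, miR-15a-5p, let-7e-5p, let-7f-5p and miR-663a. The block on the 7 libraries lost that of miR-663a.

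Scaling moved the median of all miRNAs by −0.13 with library size only, 0.17 with DESeq2 and 0.25 with singleton pairing. The difference in detected miRNAs was 225 on unthinned counts and 5.175 when at least 3 counts were asked for, and 20.0 to 28.5 without 1 library. That in the share of the 10 most abundant miRNAs was 2.55 to 4.24 points without 1 library. The cause of these changes was not tested. With 3 and 4 libraries no exact permutation p can fall below 0.0571, and total exRNA levels under 44.4 to 83.3 CPM, depending on the library, rest on fewer than 3 counts.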
